A study of Homo sapiens with 8 samples.

Results

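Tight junctions seal the space between neighbouring epithelial cells. Their strands are built from claudins and from occludin (OCLN), membrane proteins whose makeup sets which ions and solutes pass. Zonula occludens-1 (ZO-1, encoded by TJP1) ties these proteins to actin, and junctional adhesion molecule A (JAM-A, encoded by F11R) helps to place the junction and cell polarity. The gut epithelium makes both sealing claudins, such as CLDN1, CLDN3, CLDN4 and CLDN7, and claudins that form pores, such as CLDN2 and CLDN15. The 10 genes described here are CLDN1, CLDN2, CLDN3, CLDN4, CLDN7, CLDN12, CLDN15, OCLN, TJP1 and F11R. They were taken by name from 19820 annotated protein-coding genes. The rule used no measured value, but the genes were proposed with earlier results of these data known.

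The libraries come from HCT15 cells, a long-used line from a human colorectal cancer. The parental line, HCT15-Pa, was labelled as treated with DMSO, the solvent of the drug. The line resistant to 5-fluorouracil (5-FU), HCT15-FR, was labelled as treated with 20 μg/mL 5-FU. By the study's methods it was a commercial line grown in 5-FU and moved to medium without the drug for some days before experiments, so the comparison is of 1 resistant line with its parent. CUT&Tag, in which an antibody guides a transposase to a histone mark, was run for succinylation of histone H3 lysine 23 (H3K23su) and acetylation of histone H3 lysine 27 (H3K27ac), with 2 libraries of each line for each mark, 8 in all. H3K27ac marks active promoters and enhancers, and succinylation is a bulkier, acidic acyl group placed on lysine from succinyl-CoA. The question the design puts is where these marks differ between resistant and parental cells. Nothing in the labels says that the 2 libraries of a group came from separate cultures, so p-values measure only the spread between libraries, which may be technical.

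Each library was given as a list of peaks, with a score that is −log10 of the peak caller's P value. The lists held from 65364 to 76676 peaks. Read counts are not part of them, so sequencing depth behind each peak is unknown, and a missing peak means only that the mark was not detectable at the authors' threshold. Touching or overlapping peaks of 1 mark, from any of its 4 libraries, were joined into regions. Regions found in each HCT15-FR library and no HCT15-Pa library are termed FR-only, those found in each HCT15-Pa and no HCT15-FR library Pa-only, and those of all 4 libraries shared. Each gene was read through 3 zones: the promoter window of 2 kb either side of the transcription start site (TSS), the rest of the gene body, and 50 kb on either flank. CLDN3 and CLDN4 lie 60.7 kb apart, their flanks overlap, and regions in both were counted once in totals.

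Most markers of colon epithelium carried the marks. Of 10 epithelial markers, 7 had promoter H3K23su (54.7% of genes) and 8 promoter H3K27ac (59.1%) in all 4 libraries. CDH1, KRT8 and VIL1 were among them. CDX1, an intestinal transcription factor, had promoter peaks of both marks in HCT15-FR and none in HCT15-Pa, and KRT20 had promoter H3K27ac in HCT15-FR alone. The part of such marker differences in the results was not tested. No library had a promoter peak of either mark at 4 of 5 fibroblast markers (33.4% of genes for H3K23su and 26.3% for H3K27ac). The same held at 3 of 4 endothelial markers and at the leukocyte markers PTPRC, CD3E and LYZ. The exceptions were CD14, marked in all 8 libraries, COL1A1, and CDH5 with a peak in single libraries. COL1A1 had H3K27ac in all 4 libraries and H3K23su in 1 HCT15-Pa and both HCT15-FR libraries. Peaks covered 1.19 times as much of the genome in HCT15-FR as in HCT15-Pa for each mark.

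Sequence at the 10 promoters was not uniform. The promoter of CLDN1, which had peaks at the TSS in HCT15-Pa alone, is shown with that of CLDN3, which had them in every library. Each run is the 200 bases before the TSS on the gene's strand (GRCh37, the build of the peak lists, hg19), from chr3:190040236-190040435 and chr7:73184601-73184800, both on the minus strand. Neither overlaps an untranslated region. Capitals mark GC boxes, GGGCGG read on either strand, a sequence that Sp and KLF family proteins can bind.
CLDN1: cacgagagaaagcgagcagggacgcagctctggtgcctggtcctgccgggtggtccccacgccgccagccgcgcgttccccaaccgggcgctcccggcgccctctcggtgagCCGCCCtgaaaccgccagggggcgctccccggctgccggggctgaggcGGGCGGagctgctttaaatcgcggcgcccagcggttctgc
CLDN3: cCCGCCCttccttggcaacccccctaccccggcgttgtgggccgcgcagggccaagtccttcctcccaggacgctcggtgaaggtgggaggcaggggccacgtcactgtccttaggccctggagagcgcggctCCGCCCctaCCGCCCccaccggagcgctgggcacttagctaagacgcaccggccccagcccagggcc
Between 250 bases before and 50 after the TSS, a GC box was found in 7 of the 10 promoters, against 61.3% of 19798 protein-coding promoters. CLDN3 had 6 copies, TJP1 3, and CLDN1, CLDN7 and F11R 2 each. The E-box CAGGTG, on either strand, was present in 4 promoters, with 5 copies at CLDN7, 3 at F11R, 2 at OCLN and 1 at CLDN3, against 20.4% of all promoters. The AP-1 letters TGACTCA were found at CLDN4 and CLDN15, against 3.56% of all promoters. No member promoter held the GATA letters AGATAA or the CDX letters TTTATNG, which 7.17% and 7.93% of all promoters hold. CLDN2 stood apart in composition. Its promoter had a GC content of 44.0% and an observed-to-expected CpG ratio of 0.144, where the medians of all promoters were 63.7% and 0.775. CLDN4 (0.192) and CLDN15 (0.391) also had few CpG sites, whereas TJP1 (0.962) and CLDN1 (0.921) were the richest of the 10.

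Away from promoters, 3 of the 14 FR-only H3K23su regions at these genes had the AP-1 letters TGACTCA, which FOS and JUN family factors bind, in their central 200 bp. They were at CLDN12, OCLN and TJP1, 1 site in each, and are printed to show the sequence under these regions. Of all FR-only H3K23su regions, 11.8% held these letters in the same window. None of the 5 Pa-only H3K23su regions at the genes held them (6.28% of all Pa-only regions). For H3K27ac, 1 of 9 FR-only regions at the genes held them, at OCLN (14.0% of all FR-only regions). So did 1 of 4 Pa-only H3K27ac regions, at F11R (7.88% of all Pa-only regions). In the FR-only H3K23su regions other letters were found as well. The GATA letters were in 4 of the 14 (12.1% of all FR-only H3K23su regions), the E-box in 4 (20.7%), the CDX letters in 2 (10.8%) and the GC box in 1 (9.15%). The site at CLDN12 lies in an intron at chr7:90054918-90054944 (minus strand). The site at OCLN lies 48.4 kb upstream, in the 3′ part of the neighbouring gene MARVELD2, at chr5:68740164-68740190 (plus strand). That at TJP1 lies 87.1 kb upstream of the canonical TSS, in an intron of longer transcripts, at chr15:30201773-30201799 (minus strand). All coordinates are GRCh37, and AP-1 letters stand in capitals between 10 bases of flank.
CLDN12 site: tcctggcccaTGACTCAcatgtgtaca
OCLN site: gatgctcaggTGACTCActgtttctcc
TJP1 site: aacttcgtttTGACTCAtaagtctggt
The match of letters describes the sequence and does not show that a factor was bound.

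Most of these promoters were marked in every library. A peak within 2 kb of the TSS was present in all 4 libraries at 8 of the 10 genes for H3K23su, where 54.7% of protein-coding genes had one, and at the same 8 genes for H3K27ac, against 59.1%. The 8 were CLDN2, CLDN3, CLDN4, CLDN7, CLDN12, OCLN, TJP1 and F11R. CLDN15, a cation pore claudin of the intestine, had no promoter peak of either mark in any library (33.4% of genes for H3K23su and 26.3% for H3K27ac). CLDN1, a barrier-forming claudin, was the 1 member with a promoter called differently between the lines.

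At CLDN1 both marks were found at the start of the gene in HCT15-Pa and in neither HCT15-FR library. In bulk cells, fewer cells with a mark and less of it per cell cannot be told apart. The H3K23su region, chr3:190039868-190040219, has its midpoint in the untranslated part of exon 1, 192 bp downstream of the TSS. Its scores were 3.98 and 4.21 in HCT15-Pa replicates 1 and 2. The H3K27ac region, chr3:190039597-190040283, has its midpoint in the coding part of exon 1, with scores of 5.06 and 5.88. Scores depend on the list they come from, so each was also ranked within its own list. The H3K23su peaks stood at percentiles 34.5 and 44.0, in the weaker part of their lists, and the H3K27ac peaks at 64.8 and 73.5. A Pa-only region of each mark within 2 kb of the TSS was seen at 0.898% of all protein-coding genes. For single marks the shares were 2.1% for H3K23su and 2.63% for H3K27ac. No member had FR-only regions of both marks there, as 0.772% of genes had. By the presence of any peak in the promoter window, H3K27ac at CLDN1 was confined to HCT15-Pa among the 10 genes (2.21% of genes) and H3K23su at none (1.72%), and no member was marked in HCT15-FR alone (1.87% of genes for H3K23su and 1.39% for H3K27ac).

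The call at CLDN1 was firmer for H3K27ac than for H3K23su. HCT15-FR replicate 2 had another H3K23su peak in the promoter window, at chr3:190041574-190041889, with its midpoint 1496 bp upstream of the TSS, a score of 3.64 and a percentile of 15.6. Hence the bases under H3K23su peaks in the promoter window were 238 and 157 in HCT15-Pa and 0 and 316 in HCT15-FR, and the groups overlapped. For H3K27ac they were 370 and 687 in HCT15-Pa and 0 in both HCT15-FR libraries, which did not overlap. The exact two-sided permutation test gave p = 0.333 for H3K27ac, the lowest value possible with 2 libraries per line. The H3K23su region was no longer Pa-only among the stronger 50% of each list. Without HCT15-FR replicate 1 the H3K23su region at the TSS stayed Pa-only. The separate peak of HCT15-FR replicate 2 then counted as FR-only, so FR-only minus Pa-only H3K23su regions at this promoter came to 0.

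**Figure D1:**
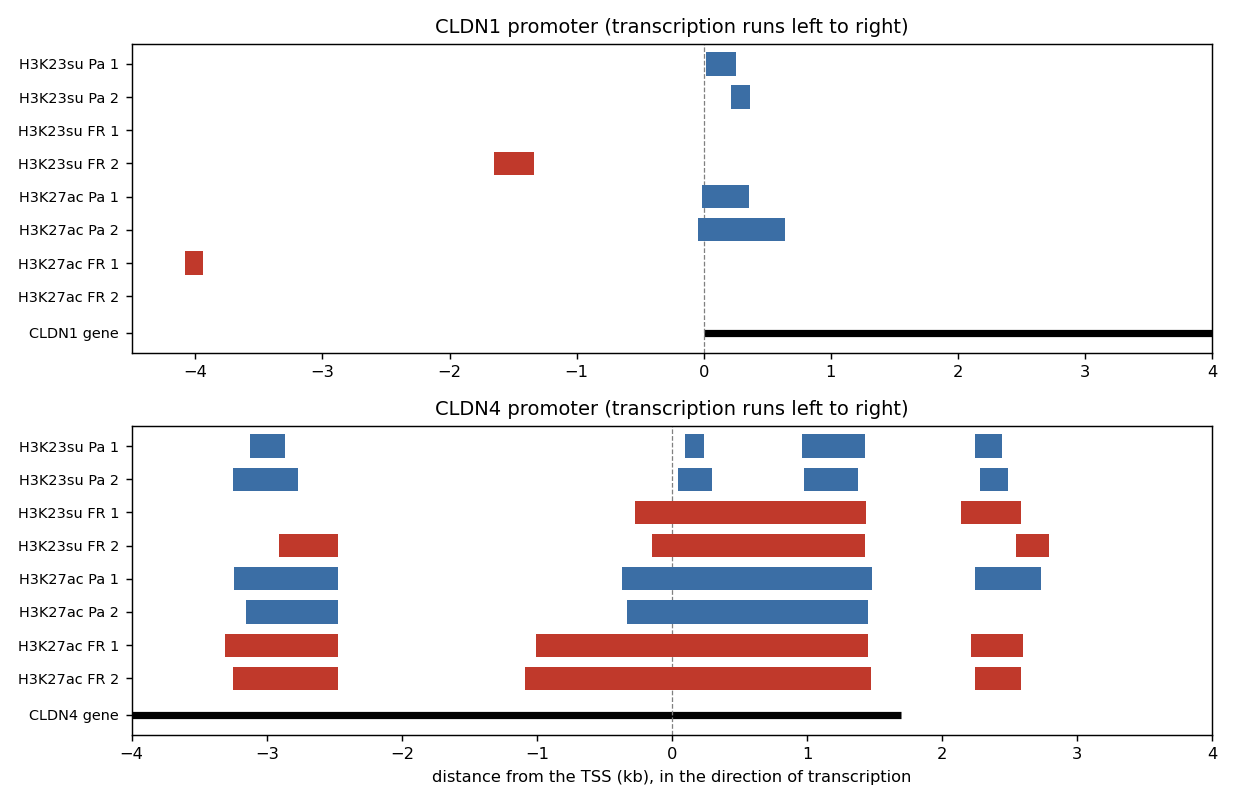
Peaks of each library (rows, with mark, line and replicate) around the TSS of CLDN1 (top) and CLDN4 (bottom), against distance from the TSS in kb in the direction of transcription, with HCT15-Pa in blue, HCT15-FR in red and the gene as a black bar. At CLDN1 both marks have a peak at the TSS in HCT15-Pa and none there in HCT15-FR, and at CLDN4 the 2 H3K23su peaks of each HCT15-Pa library are 1 longer peak in each HCT15-FR library.

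The flanks of CLDN1 did not follow its promoter. An FR-only H3K23su region lay 56.4 kb downstream of the TSS, beyond the 3′ end of the gene, at chr3:189983700-189984055, with percentiles of 61.8 and 78.8. H3K27ac was found there in HCT15-Pa replicate 1 and in both HCT15-FR libraries, at percentiles 17.7, 50.4 and 88.1. A region 23.1 kb upstream, chr3:190062777-190063921, carried H3K23su in all 4 libraries, at percentiles 24.2 and 35.1 in HCT15-Pa and 50.3 and 50.6 in HCT15-FR. Across the gene and both flanks, peaks of H3K23su covered 637 and 899 bp in HCT15-Pa and 1209 and 1842 bp in HCT15-FR. H3K27ac covered 1435 and 1331 bp in HCT15-Pa and 2172 and 1731 bp in HCT15-FR. Both marks thus covered more in each HCT15-FR library over the whole window, while the promoter window itself had H3K27ac in HCT15-Pa alone. With flanks of 10 kb the H3K27ac difference at CLDN1, HCT15-FR minus HCT15-Pa, reversed from 568.5 to -255 bp.

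CLDN4, a sealing claudin of tight epithelia, had the largest ratio of covered promoter length between the lines among the 10 genes, in both marks. In the promoter window H3K23su covered 620 and 651 bp in HCT15-Pa and 1713 and 1582 bp in HCT15-FR, a ratio of 2.59. The 2 peaks of each HCT15-Pa library, 1 at the TSS and 1 further into the gene, were a single peak in each HCT15-FR library. H3K27ac covered 1852 and 1788 bp in HCT15-Pa and 2457 and 2556 bp in HCT15-FR, a ratio of 1.38. Neither pair of groups overlapped (exact permutation p = 0.333 for each, the smallest possible). A ratio at least as large was seen at 4.79% of 12497 genes for H3K23su and at 12.5% of 13889 genes for H3K27ac. The H3K23su percentiles of the strongest peak, 53.5 and 62.4 in HCT15-Pa and 54.1 and 44.4 in HCT15-FR, overlapped, while those of H3K27ac, 78.2 and 76.1 against 79.6 and 79.4, did not.

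Over the 10 promoter windows, H3K23su covered more in both HCT15-FR libraries at 5 genes (43.1% of genes with a peak), namely CLDN3, CLDN4, CLDN7, CLDN12 and F11R. It covered less at 1 gene, OCLN (8.37%), where the lengths were 2039 and 1983 bp in HCT15-Pa and 1900 and 1869 bp in HCT15-FR. Margins were small at CLDN7 and CLDN12. The nearest libraries had 1406 bp in HCT15-Pa and 1430 bp in HCT15-FR at CLDN7, and 761 and 765 bp at CLDN12. H3K27ac covered more at CLDN4 and OCLN, 2 genes (31.3%), and less at CLDN1, 1 gene (12.9%). The H3K27ac lengths at OCLN differed little, with 1859 and 1872 bp in HCT15-Pa and 1951 and 1881 bp in HCT15-FR. The shares of all genes in parentheses show that longer promoter coverage in HCT15-FR was common across the genome. The median ratio of HCT15-FR to HCT15-Pa was 1.16 over the members against 1.14 over all genes for H3K23su, and 1.03 against 1.04 for H3K27ac.

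Peak strength gave another view of the 8 promoters marked throughout. For H3K27ac, the strongest promoter peak ranked higher in both HCT15-FR libraries than in either HCT15-Pa library at 5 of the 8 genes (22.1% of genes marked in all 4 libraries), and lower at 1 (28.2%). OCLN had H3K27ac scores of 11.9 and 13.7 in HCT15-Pa and 19.89 and 22.78 in HCT15-FR, and its percentiles went from 94.7 and 96.4 to 98.2 and 99.0. TJP1 had scores of 14.1 and 13.91 in HCT15-Pa and 22.78 and 19.57 in HCT15-FR, with percentiles of 97.0 and 96.6 against 98.9 and 98.2. These were the strongest H3K27ac promoters of the set, and in neither gene did the groups overlap. CLDN3 (91.5 and 92.8 against 95.1 and 96.4) and CLDN7 (88.8 and 86.1 against 92.7 and 93.9) were placed likewise, as was CLDN4 by a small margin (78.2 and 76.1 against 79.6 and 79.4). CLDN12, a claudin found outside the gut as well, was the 1 gene with lower percentiles, 94.8 and 96.0 in HCT15-Pa against 92.7 in both HCT15-FR libraries.

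Strength of the H3K23su promoter peaks differed in both directions. CLDN7, a claudin of the lateral membrane as well as the junction, ranked at percentiles 24.3 and 52.6 in HCT15-Pa and 75.3 and 88.3 in HCT15-FR. Its scores were 3.78 and 4.43 in HCT15-Pa and 5.82 and 7.31 in HCT15-FR, so both HCT15-FR libraries were above both HCT15-Pa libraries, although the parental pair lay far apart. F11R was higher by a few percentiles (91.4 and 91.6 against 94.5 and 95.4). These 2 genes compare with 28.3% of genes marked in all 4 libraries. CLDN2 (86.6 and 83.9 against 77.3 and 71.5) and CLDN12 (93.8 and 93.5 against 91.4 and 85.6) were lower in both HCT15-FR libraries, 2 genes, against 15.6%. At CLDN3, CLDN4, OCLN and TJP1 the groups overlapped. TJP1 varied most between libraries of 1 line, with 85.8 and 56.8 in HCT15-Pa and 82.6 and 59.1 in HCT15-FR.

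**Figure D2:**
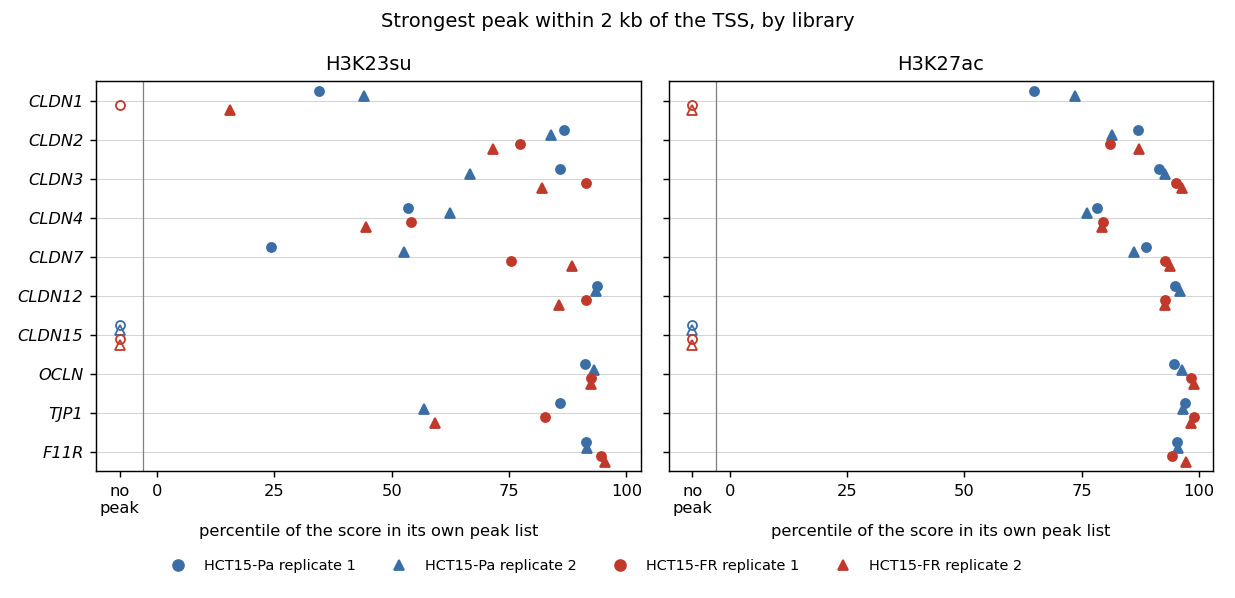
Percentile of the strongest promoter peak's score in its own list (x axis) for each gene (y axis), H3K23su left and H3K27ac right; blue is HCT15-Pa, red HCT15-FR, circles replicate 1 and triangles replicate 2, and open symbols mark libraries with no peak. CLDN7 H3K23su goes from 24.3 and 52.6 to 75.3 and 88.3, H3K27ac at CLDN1 is missing from both HCT15-FR libraries, and CLDN15 has no promoter peak.

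The order of the 8 promoters marked in every library differed between the marks. By the study's methods broad calling was used for H3K27ac peaks, so percentiles of the marks may not be like measures. In H3K27ac, the median percentile over the 4 libraries ran from 97.6 at TJP1, 97.3 at OCLN and 95.5 at F11R through 94.0 at CLDN3, 93.8 at CLDN12 and 90.8 at CLDN7 to 84.2 at CLDN2 and 78.8 at CLDN4. Neighbours in this order from TJP1 to CLDN7 had overlapping ranges. The ranges of CLDN7 (86.1 to 93.9) and CLDN2 (81.1 to 87.3) also overlapped, while CLDN4 (76.1 to 79.6) lay below all of them. In H3K23su, F11R (93.1), OCLN (92.5) and CLDN12 (92.5) led, CLDN3 (83.9), CLDN2 (80.6), TJP1 (70.9) and CLDN7 (64.0) followed, and CLDN4 had the lowest median (53.8). The range of CLDN7 (24.3 to 88.3) enclosed those of TJP1 (56.8 to 85.8) and CLDN4 (44.4 to 62.4), and in HCT15-Pa CLDN7 ranked below CLDN4. Over all genes marked in every library the median was 85.7 for H3K23su and 87.6 for H3K27ac.

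CLDN15 was marked at its other end. Both marks had a shared region over its 3′ untranslated part, at chr7:100874959-100876189 for H3K23su and chr7:100875078-100876141 for H3K27ac, with midpoints 5509 and 5474 bp downstream of the TSS. H3K23su percentiles there were 68.7 and 89.9 in HCT15-Pa and 86.6 and 80.3 in HCT15-FR. H3K27ac percentiles were 90.6 and 89.7 in HCT15-Pa and 80.1 and 81.1 in HCT15-FR, lower in both. The other 4 shared regions of each mark lay in the flanks, nearest to the TSSs of MOGAT3, PLOD3 and FIS1. None of the 5 annotated coding start sites of CLDN15 had a peak of either mark within 2 kb.

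Alternative start sites of the members gave few differences. For OCLN, a start at position 68800004 of chromosome 5, inside the gene, had H3K23su within 2 kb in each HCT15-FR library but in no HCT15-Pa library, with H3K27ac in all 4. The peaks belong to the H3K23su region chr5:68797449-68799047, which was shared by all 4 libraries, so it is the reach of the peaks towards this start that differed. The upstream starts of CLDN2 (chromosome X, 106143394), CLDN12 (chromosome 7, 90013035) and TJP1 (chromosome 15, 30261118) had no peak of either mark in any library. A start of CLDN4 at 73242074 on chromosome 7 had H3K23su in both HCT15-Pa libraries and in 1 HCT15-FR library.

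The 10 genes and their flanks held 148 H3K23su regions of 122500 in the genome and 144 H3K27ac regions of 133786. Of the H3K23su regions, 14 were FR-only, which is 9.46% against 7.95% of all regions, and 5 were Pa-only, which is 3.38% against 5.01%. Of the H3K27ac regions, 9 were FR-only, 6.25% against 9.08%, and 4 were Pa-only, 2.78% against 4.53%. Shared regions made up 38.5% for H3K23su and 41.7% for H3K27ac, where the genome had 23.9% and 25.2%. Regions seen in a single library were 33.1% and 29.2% against 46.8% and 46.1%. Regions are not replicates, and no test was made of these shares.

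FR-only H3K23su regions were spread over 8 of the 10 genes, and 48.6% of protein-coding genes had one in the gene or within 50 kb. Pa-only H3K23su regions were at 5 genes (35.5%). FR-only H3K27ac regions were at 5 genes (53.4%) and Pa-only ones at 3 (33.8%). Of the FR-only and Pa-only regions of either mark, those of CLDN1 at the TSS were the only ones in a promoter window of the 10 genes.

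**Figure D3:**
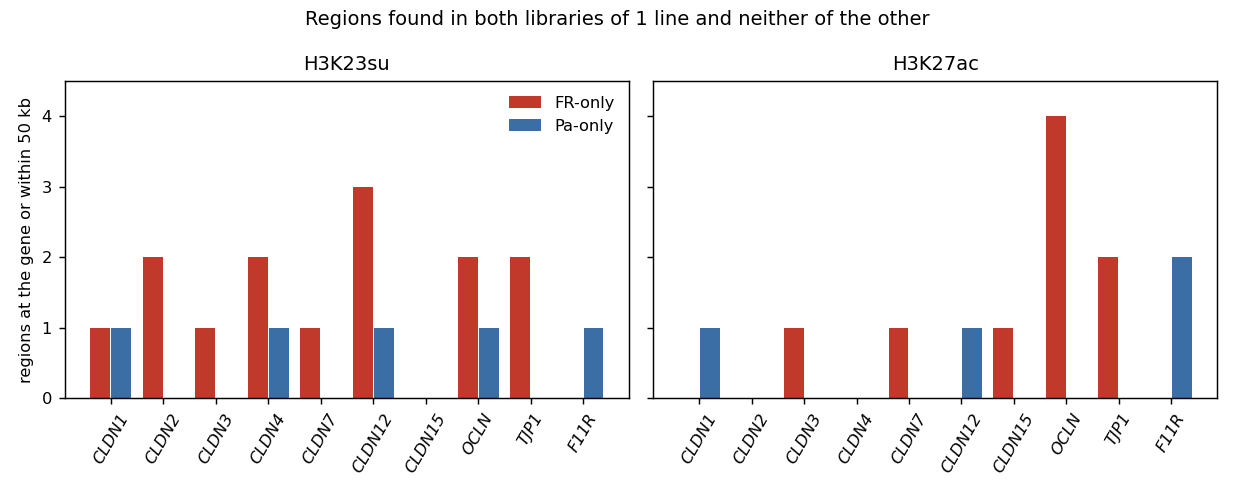
Number of FR-only (red) and Pa-only (blue) regions (y axis) at each gene with 50 kb either side (x axis), H3K23su left and H3K27ac right. OCLN has 4 FR-only H3K27ac regions, CLDN12 has 3 FR-only H3K23su regions, and CLDN15 has no FR-only or Pa-only H3K23su region.

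OCLN had 4 of the 9 FR-only H3K27ac regions. The first, at chr5:68739691-68740594 (percentiles 80.0 and 58.7), overlapped an FR-only H3K23su region at chr5:68739684-68740610 (27.8 and 61.7). Both lie 48.5 kb upstream of OCLN over the 3′ untranslated part of MARVELD2, which encodes tricellulin, a relative of occludin at tricellular junctions. It was the 1 place at the 10 genes where FR-only regions of both marks overlapped. A run of 300 bases of it outside exons, chr5:68740235-68740534 on the plus strand of GRCh37, is printed for that reason. This run holds none of the motif letters, but the region does. Its AP-1 site, chr5:68740164-68740190, lies before the printed run, and its central 200 bp also held 1 E-box.
OCLN upstream region: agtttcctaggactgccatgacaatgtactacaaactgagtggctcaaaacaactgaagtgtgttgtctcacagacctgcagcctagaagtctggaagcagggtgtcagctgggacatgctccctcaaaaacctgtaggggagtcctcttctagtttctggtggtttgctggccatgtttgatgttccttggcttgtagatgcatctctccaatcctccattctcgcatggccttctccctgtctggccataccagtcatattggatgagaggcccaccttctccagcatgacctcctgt
A second FR-only H3K27ac region, chr5:68747439-68748345, lay between genes 40.7 kb upstream, with percentiles of 84.4 and 72.9, and HCT15-FR replicate 2 also had H3K23su there at percentile 80.3. The other two were weaker, in an intron of OCLN at chr5:68812113-68812339 (40.0 and 15.1) and near GTF2H2C at chr5:68889993-68890472 (7.6 and 32.2). Inside OCLN, 28.4 kb from the TSS, an FR-only H3K23su region at chr5:68816606-68817357 (21.7 and 57.3) lay on a shared H3K27ac region (52.0 and 34.1 in HCT15-Pa, 68.1 and 64.5 in HCT15-FR). The 1 Pa-only region of OCLN was H3K23su at chr5:68865116-68865784 over GTF2H2C (30.7 and 53.3).

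CLDN12 had 3 FR-only H3K23su regions. The strongest lay in an intron 22.1 kb downstream of the TSS, at chr7:90054784-90055020, with percentiles of 78.1 and 69.8, and H3K27ac was found there in HCT15-FR replicate 2 alone (55.5). The whole region is printed on the plus strand of GRCh37 with its AP-1 letters, read from the other strand, in capitals.
CLDN12 intronic region: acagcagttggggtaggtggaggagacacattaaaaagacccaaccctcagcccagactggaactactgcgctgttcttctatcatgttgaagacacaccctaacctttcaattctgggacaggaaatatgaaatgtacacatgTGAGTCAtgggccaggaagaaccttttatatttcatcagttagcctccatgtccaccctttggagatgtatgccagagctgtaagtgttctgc
The others were at chr7:89978652-89978976, in an intron of GTPBP10 54.0 kb upstream (77.4 and 45.0), and at chr7:90041557-90041895, in an exon of CLDN12 (18.9 and 30.0). A Pa-only H3K23su region stood at chr7:89998821-89999156 in GTPBP10 (10.9 and 31.8). In H3K27ac the gene had no FR-only region and 1 Pa-only region, in an intron at chr7:90062254-90062907 (6.9 and 48.0).

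**Figure D4:**
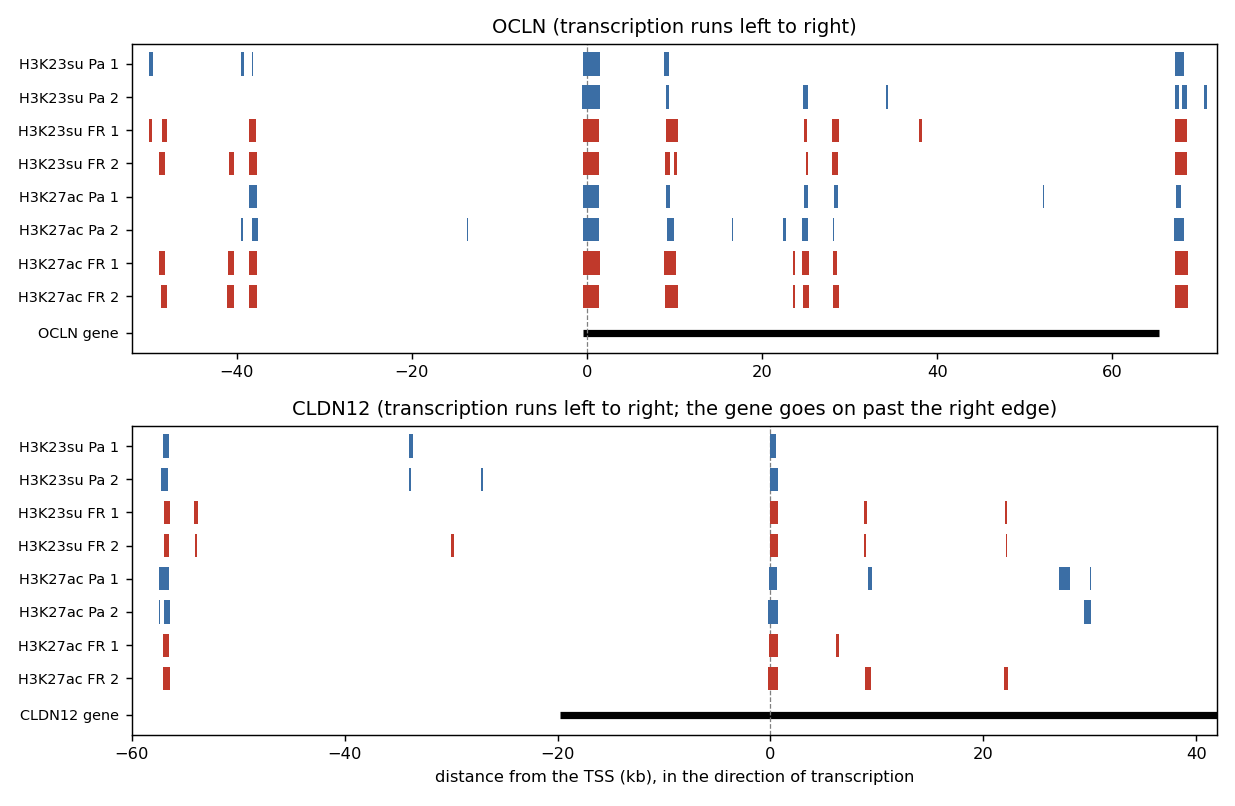
Peaks of each library (rows, with mark, line and replicate) at OCLN (top) and CLDN12 (bottom), against distance from the TSS in kb in the direction of transcription, with HCT15-Pa in blue, HCT15-FR in red and the gene as a black bar; part of each flank is shown. The region 48.5 kb upstream of OCLN has both marks in both HCT15-FR libraries, and the region 22.1 kb into CLDN12 has H3K23su in both.

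TJP1, the longest gene of the set, had 2 FR-only regions of each mark. H3K23su was FR-only in introns at chr15:29997306-29997603 (58.9 and 28.6) and chr15:30201674-30202081 (45.6 and 21.2). H3K27ac was FR-only in an intron at chr15:30027547-30027744, 87.0 kb downstream of the TSS, with percentiles of 72.4 and 90.5 and no H3K23su, and past the 3′ end at chr15:29987725-29988089 (14.1 and 19.1). At the intronic H3K23su region with the AP-1 letters, HCT15-FR replicate 2 alone had H3K27ac (23.8). The 4 regions lay from 87.0 to 126.8 kb from the canonical TSS, and none was FR-only in both marks.

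F11R was the gene with Pa-only regions of both marks and no FR-only region. In its own intron, 7.1 kb downstream of the TSS and under an overlapping gene model as well, H3K27ac was Pa-only at chr1:160983520-160984188 (59.9 and 48.8). H3K23su overlapped it in all 4 libraries, at percentiles 76.9 and 59.1 in HCT15-Pa and 20.9 and 12.9 in HCT15-FR. The H3K23su percentiles of the lines did not overlap. A stretch of 300 bases, chr1:160983705-160984004 on the plus strand of GRCh37, is printed as part of the 1 Pa-only H3K27ac region in F11R, and its capitals mark a GC box on the other strand.
F11R intronic region: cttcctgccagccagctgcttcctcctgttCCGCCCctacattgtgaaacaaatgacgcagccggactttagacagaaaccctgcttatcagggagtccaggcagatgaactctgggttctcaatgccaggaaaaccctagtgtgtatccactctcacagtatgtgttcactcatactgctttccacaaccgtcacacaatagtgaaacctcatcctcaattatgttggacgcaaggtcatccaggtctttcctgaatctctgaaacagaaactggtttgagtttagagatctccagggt
The remaining Pa-only regions were H3K23su at chr1:161021080-161021663 in ARHGAP30 (22.4 and 42.5) and H3K27ac at chr1:160919202-160919448 in ITLN2 (59.0 and 48.1). The promoter of F11R had both marks in every library.

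The other claudins had a few line-specific regions, all in their flanks. CLDN2 had FR-only H3K23su at chrX:106176494-106177234 (28.9 and 26.6) and chrX:106216776-106217575 (27.4 and 18.8), both in introns of MORC4. CLDN3 had FR-only H3K23su at chr7:73149299-73149653 (66.1 and 62.0) and FR-only H3K27ac at chr7:73136038-73136280 (63.3 and 12.4). CLDN4 had FR-only H3K23su at chr7:73263587-73264141 (1.9 and 4.2) and chr7:73269931-73270240 (30.4 and 42.4), and Pa-only H3K23su at chr7:73284352-73285319 (3.7 and 59.7). Over all 10 genes, the weaker of the 2 peaks stood at or above percentile 50 of its list in 7 of the 32 FR-only and Pa-only regions. No share over all such regions of the genome stands beside this count, so it describes these regions only. CLDN7 had FR-only H3K23su in DLG4 at chr17:7117742-7118625 (40.6 and 34.4) and FR-only H3K27ac in DVL2 at chr17:7130059-7130416 (43.7 and 33.0). CLDN15 had 1 such region, FR-only H3K27ac between genes at chr7:100926222-100926489 (33.6 and 63.8).

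H3K23su regions that were FR-only seldom had FR-only H3K27ac at these genes. Of the 14, 1 overlapped an FR-only H3K27ac region (7.14%), where 35.8% of all FR-only H3K23su regions did. By contrast 5 of 14 lay on H3K27ac present in all 4 libraries (35.7%, against 17.1% of all), at CLDN2, CLDN3, CLDN4, CLDN7 and OCLN. Some H3K27ac was present at 12 of the 14 (85.7%, against 82.5% of all). Of the 5 Pa-only H3K23su regions, 1 overlapped Pa-only H3K27ac (20.0%, against 19.8% of all), which is the CLDN1 promoter. Shared H3K23su regions lay on shared H3K27ac in 46 of 57 cases (80.7%, against 80.3%). These are counts of few regions and carry no test.

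Across the gene with 50 kb either side, H3K23su covered more in both HCT15-FR libraries at 7 of the 10 genes (51.8% of genes with a peak) and less at none (13.3%). The 7 were CLDN1, CLDN2, CLDN3, CLDN4, CLDN7, CLDN12 and OCLN. H3K27ac covered more at 6 (50.3%), namely CLDN1, CLDN2, CLDN3, CLDN4, OCLN and TJP1, and less at none (13.7%). At the remaining genes the groups overlapped. Each difference without overlap had an exact permutation p = 0.333, the smallest possible. The median ratio of HCT15-FR to HCT15-Pa was 1.34 over the 10 genes and 1.20 over all genes for H3K23su, and 1.24 and 1.14 for H3K27ac, beside the 1.19 by which covered length of the genome differed.

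OCLN had the largest ratio in H3K27ac and CLDN1 in H3K23su. H3K27ac at OCLN covered 5557 and 6234 bp in HCT15-Pa and 9104 and 9196 bp in HCT15-FR, a ratio of 1.55, and a ratio at least as large was seen at 13.3% of 18757 genes. H3K23su at OCLN covered 5146 and 5316 bp in HCT15-Pa and 7832 and 7414 bp in HCT15-FR (1.46). At CLDN1 the H3K23su ratio was 1.99, exceeded or matched at 5.91% of 18073 genes, from lengths that were the shortest of the set. CLDN2, a pore claudin, had H3K27ac over 5927 and 5309 bp in HCT15-Pa and 8161 and 8143 bp in HCT15-FR (1.45). TJP1 differed between marks, with H3K27ac over 11238 and 11211 bp in HCT15-Pa and 14215 and 14065 bp in HCT15-FR, but overlapping H3K23su groups (12866 and 11125 bp against 12527 and 12028 bp). CLDN12 also differed between marks, with H3K23su over 1423 and 1692 bp in HCT15-Pa and 2203 and 2155 bp in HCT15-FR, and H3K27ac over 3305 and 2229 bp against 1680 and 2392 bp. Whether the marks differ from each other at these genes was not tested.

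**Figure D5:**
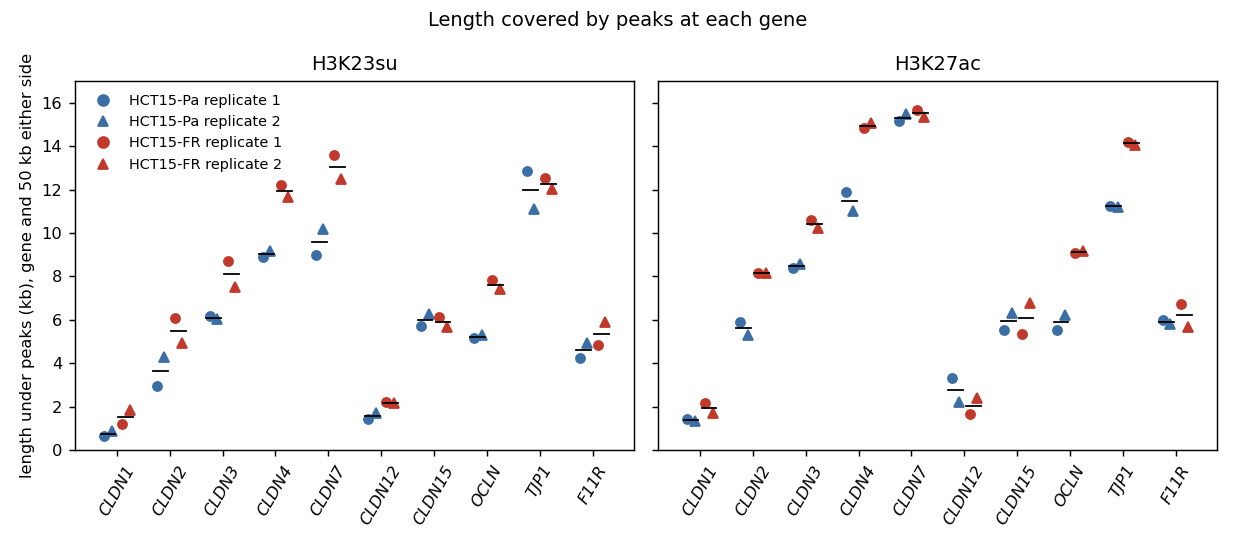
Length under peaks in kb (y axis, from 0) at each gene with 50 kb either side (x axis), H3K23su left and H3K27ac right; blue is HCT15-Pa, red HCT15-FR, circles replicate 1, triangles replicate 2, and black bars the mean of 2 libraries. Both HCT15-FR libraries lie above both HCT15-Pa libraries at 7 genes for H3K23su and at 6 for H3K27ac.

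Per length, CLDN7 had the most densely marked window, with 9.21% under H3K23su in HCT15-Pa and 12.5% in HCT15-FR, and 14.7% and 14.9% under H3K27ac. Most of this lay in the flanks, which hold other genes such as ACADVL, DVL2 and EIF5A. The flanks held on average 8121 of 9588 bp of H3K23su in HCT15-Pa and 11429.5 of 13040.5 bp in HCT15-FR. The windows of CLDN3 and CLDN4 followed and share part of the same peaks. CLDN1 and CLDN12 were the least covered, with 0.658% and 0.678% under H3K23su in HCT15-Pa. The median over the 10 genes was 3.44% in HCT15-Pa and 4.43% in HCT15-FR for H3K23su, where all genes had 2.28% and 2.66%. For H3K27ac it was 4.49% and 5.60%, against 2.62% and 3.07%.

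The rest of the tight junction was read from 45 other genes, which comprise further claudins, scaffolds, polarity proteins and tricellular proteins. Promoter peaks were present in all 4 libraries at 23 of them for H3K23su (54.7% of all genes) and at 23 for H3K27ac (59.1%), and in none at 13 (33.4%) and 10 (26.3%). Named after their values were seen, the polarity genes PARD3, PRKCI, PRKCZ, PATJ, PALS1 and CRB3 and the scaffold TJP3 were marked in all 8 libraries, as was the tricellulin gene MARVELD2. The claudins CLDN6, CLDN8, CLDN17 and CLDN19 had no promoter peak of either mark. FR-only promoter regions of H3K23su were found at 2 of the 45 (3.64% of all genes), CLDN14 and ILDR2, and of H3K27ac at 3 (2.64%), CLDN5, CLDN16 and CGN. Pa-only promoter regions of H3K23su were at 1 gene, ILDR1 (2.1% of all genes), and of H3K27ac at 3 (2.63%), namely CLDN10, ILDR1 and AMOT.

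ILDR1, a receptor-like protein of tricellular junctions, had the pattern of CLDN1. Its H3K23su region, chr3:121740868-121741146, had its midpoint 87 bp downstream of the TSS and was Pa-only at percentiles 44.7 and 77.8. Its H3K27ac region, chr3:121740405-121741226, was Pa-only at 44.2 and 57.0. CGN, which encodes the cytoplasmic plaque protein cingulin, had a promoter peak of each mark in every library and a further FR-only H3K27ac region 1182 bp upstream of its TSS (52.8 and 52.4). CLDN16, a claudin of the kidney that neighbours CLDN1, had FR-only H3K27ac 1804 bp upstream of its TSS (45.3 and 65.1). The percentiles of the regions at the other genes were 18.6 and 3.8 at CLDN10, 5.6 and 5.0 at CLDN5, 21.2 and 54.7 at CLDN14, 9.1 and 19.1 at ILDR2 and 17.6 and 33.7 at AMOT. Over the whole window, H3K23su covered more in both HCT15-FR libraries at 22 of the 45 genes (51.8% of all genes with a peak) and less at 4 (13.3%), and H3K27ac more at 25 (50.3%) and less at 7 (13.7%). Their median ratios of HCT15-FR to HCT15-Pa were 1.26 and 1.16, beside 1.20 and 1.14 over all genes.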

How the data were processed

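CUT&Tag peak lists of HCT15-Pa and HCT15-FR were analysed, 2 libraries per line for each of H3K23su and H3K27ac. By the submitters' notes and methods, the authors aligned reads to hg19 with Bowtie2, filtered them with SAMtools and called peaks in each library with MACS2, with broad calling for H3K27ac. The deposited lists give a score per peak, −log10 of the P value, and no read counts, summits or signal, so depth is unknown and the RPKM rule of the study could not be applied.

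Genes and TSSs came from GENCODE release 44 mapped to GRCh37, with the canonical transcript as the TSS. Regions were built from all peaks of a mark, with at least 1 bp of overlap, and covered length was compared by the two-sided exact permutation test, with Python 3.11.15, pandas 2.3.3, numpy 2.4.6 and pysam 0.24.0. The code was tested on simulated data. Named are all 10 genes, each of their FR-only and Pa-only regions, and those of 45 other tight junction genes with such a region within 2 kb of the TSS. PECAM1 was not matched in the annotation. Of the leukocyte markers, 1 is not reported here. The members and lists were chosen with earlier results of these data known. Alternatives changed the score minimum, the overlap, the merge distance, the promoter and flank sizes, the assignment of regions and the libraries. The labels do not say that same-numbered libraries share more than a number, so the main test had no block.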

Additional observations from a re-analysis of the deposited data

How the results depend on the processing

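Of 280 differences in covered length over single genes and settings, 263 kept their direction and 17 reversed. Many of these could not reverse. Changing the share of a region covered, the merge distance or the promoter definition leaves covered length over the whole window as it is. The replicate block likewise leaves each difference as it is. Limited to the stronger 50% of each list, Pa-only regions numbered 3 for H3K23su and 1 for H3K27ac, and the differences (HCT15-FR minus HCT15-Pa) at CLDN15 in H3K23su and CLDN12 in H3K27ac reversed to 1847 and 46 bp. With presence asking for 50% of the region covered, FR-only H3K27ac regions numbered 14. A flank of 10 kb left, by its construction, 6 FR-only and 1 Pa-only H3K23su regions, 3 FR-only H3K27ac regions and 1 gene with less H3K27ac, CLDN1. Differences then reversed at CLDN15 in H3K23su (258.5 bp) and, in H3K27ac, at CLDN1 (-255 bp), CLDN7 (-247.5 bp), CLDN15 (-85.5 bp) and F11R (-128 bp). Flank peaks counted at the nearest TSS alone gave 7, 1, 2 and 1 for the same counts, with reversals at CLDN15 in H3K23su (204.5 bp) and at CLDN7 (-411 bp), CLDN15 (-59 bp) and F11R (-128 bp) in H3K27ac.

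Leaving out 1 library lets presence in 1 library stand for a line, so the counts grew whichever library was left out. FR-only regions ranged from 19 to 29 for H3K23su (29 and 26 without HCT15-FR replicates 1 and 2) and from 17 to 19 for H3K27ac. Pa-only regions ranged from 7 to 20 and from 6 to 16, the higher values without an HCT15-Pa library. Genes with less covered length ranged from 0 to 1 for H3K23su and from 0 to 2 for H3K27ac. Differences ranged from -373 to 183 bp (CLDN15, H3K23su), from -588 to 846 bp (CLDN15, H3K27ac), from -588.5 to 1152.5 bp (TJP1, H3K23su) and from -222 to 835 bp (F11R, H3K27ac). At CLDN1, the Pa-only H3K27ac promoter region stayed in every setting. The H3K23su count, FR-only minus Pa-only, went from -1 to 0 in 3 settings: the stronger 50%, 50% of the region covered and without HCT15-FR replicate 1. In the last of these the region at the TSS was still Pa-only. Deviations of same-numbered libraries correlated at -0.016 for H3K23su and 0.04 for H3K27ac over 19820 genes. These values cannot show whether same-numbered libraries shared a culture or a preparation, on which the labels say nothing. With the replicate block, the H3K27ac difference at OCLN was 3254.5 bp with an exact sign-flip permutation p = 0.5, the smallest the block allows. By its construction the block left every difference unchanged. The causes were not tested.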
